A study of Rattus norvegicus with 11 samples.

Results

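The genes described here encode the actin filament and the proteins that lie along it, link it into bundles and networks, or pull on it. They were chosen by symbol: the actins, the alpha-actinins, the myosin light chains and their kinases, the myosin heavy chains of class 2, the unconventional myosins, the tropomyosins, the calponins, the plastins and the filamins, with Lcp1, Nexn, Tagln, Vil1 and Ezr added by name. Among 14506 genes measured by a probe set with a single gene symbol, 58 fitted this rule, which goes by symbol alone but was drawn up with earlier results of these data known. They divide by role into 6 actins, 11 light chains and kinases, 10 heavy chains of class 2, 4 tropomyosins, 3 calponins and transgelins, 5 crosslinkers, 6 bundlers and membrane linkers, and 13 unconventional myosins. Myh9, Myl6, Myl6b and Myl6l have only probe sets shared with other symbols and were not analysed here.

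Rat Gene 1.0 ST arrays from Affymetrix, 11 in all, followed the conversion of DAc2 rat embryonic stem cells, which form the body of the embryo, into hypoblast stem cells (cHypoSCs), a culture of the extraembryonic endoderm that lines the yolk sac. The feeder-free arm began on laminin with 3 µM CHIR99021, an inhibitor of GSK3, 2 µM PD0325901, an inhibitor of MEK, and 5 ng/mL human BMP4. The feeder arm began on mouse embryonic fibroblasts with less PD0325901 (0.5 µM), the same 3 µM of CHIR99021 and no BMP4. Both arms were then moved to a rat multipotent progenitor medium holding 2% fetal bovine serum and the factors LIF, EGF and PDGF, and cells were taken at days 0, 7, 17 and 32. Without feeders there was 1 array of day 0 and there were 2 of each later day. The feeder arm had a single array per day. All samples share a single cell line, and the presence of feeder cells after day 0 is not stated in the labels. By label the feeder-free pairs are biological replicates, but no separate cultures are named, so the p-values measure the spread between these samples, which may be technical. In the fit over both arms with terms for day and culture, that spread also takes in any disagreement between the arms in their changes over days.

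Actin monomers assemble into polar filaments. Myosin motors of class 2 pull antiparallel filaments past each other, tropomyosins lie along the filament and set which motors and crosslinkers may bind, and calponin and transgelin stabilise the filaments of contractile cells. Unconventional myosins carry membrane and cargo along filaments. Many of these genes are targets of SRF, a transcription factor that binds the CArG box and is switched on when free actin monomers run low. In the early embryo this machinery shapes the epithelia and migrating sheets of the extraembryonic endoderm, while the sarcomeric forms are best known from heart and skeletal muscle.

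The promoter windows of the members were searched for the CArG box because this element is the SRF site. Only exact matches counted, that is CC, then 6 letters that are each A or T, then GG. Near matches with another letter among the 6, as in the window of Acta2, were not counted. Of the 49 members with a window in the RefSeq table (assembly GRCr8), 6 held an exact match, a share of 12.2%. This stands beside 1.77% of 27457 genes with a window of the same 300 bases, from 250 bases before to 50 after the gene start. The stretches are printed 5′ to 3′ on the gene's strand with the box in capitals.
Acta1, chr19:68784254-68784313, minus strand, box starting at base -94 from the gene start: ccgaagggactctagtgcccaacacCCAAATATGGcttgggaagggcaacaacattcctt
Actg1, chr10:106121007-106121066, minus strand, box at -90: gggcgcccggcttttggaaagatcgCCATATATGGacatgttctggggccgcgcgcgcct
Myl3, chr8:119616972-119617031, plus strand, box at -97: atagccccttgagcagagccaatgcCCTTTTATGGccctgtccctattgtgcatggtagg
Myh4, chr10:52422005-52422064, plus strand, box at -118: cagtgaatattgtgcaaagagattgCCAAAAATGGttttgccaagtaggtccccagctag
Myo1e, chr8:79768707-79768766, plus strand, box at -96: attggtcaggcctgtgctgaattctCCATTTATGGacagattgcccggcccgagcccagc
The box of Actc1, the cardiac actin gene, lies at base 3 after the start on chromosome 3 and reads CCAAATAAGG. A match is a run of letters, not a site shown to be bound, and the 6 genes did not move alike: Acta1, Actc1 and Myl3 had their lowest feeder-free value at day 0, Actg1 stayed within 0.37 on the log2 scale, Myh4 lay at background on all arrays and Myo1e was lower at day 32 than at day 0. The hexamer CATTCC, the core of sites for TEAD factors, was found on either strand in 15 of the 49 windows (30.6%) beside 15.0% of all windows. Its letters do not overlap a CArG box.

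All values are log2 expression as deposited, and changes and differences are on the same scale, with the standard error of limma's fit after ±. A difference between the arms is the feeder value minus the feeder-free value. Genes for olfactory and vomeronasal receptors, which such cells are not known to use, served as background, and 95% of their values lay below 7.97. Of the 58 genes, 44 were above that level on all 11 arrays, 6 on some of them, and 8 on none: Actn2, Myh1, Myh2, Myh4, Myh13, Myl1, Myl2 and Myo1f. The largest difference between any 2 of the 11 arrays was at least 1 for 28 members and at least 2 for 15 members. Over all genes the 2 arrays of a feeder-free pair correlated at 0.997 (day 7) and 0.998 (days 17 and 32), and no member differed by more than 0.56 within a pair. Hypoblast markers followed the labelled cell states, except that the feeder array of day 7, labelled cHypoSCs, lay between. The mean of 9 such markers was 9.37 on the feeder-free and 9.11 on the feeder array of day 0. It lay between 13.5 and 14.0 on the arrays of days 17 and 32. At day 7 it was 13.3 and 13.5 without feeders against 10.8 in the feeder arm. The mean of 6 stem cell markers was 12.69, 12.67, 10.44 and 10.46 on the feeder arrays in day order. Without feeders it was 13.55 at day 0 and 11.51 and 11.64 at day 7. The feeder array of day 7, on which the first-week tests between the arms rest, thus stayed near day 0 in the stem cell mean. Its hypoblast mean was above that of feeder day 0, at 10.8 beside 9.11. Pou5f1, a marker of the stem cells, was still between 13.0 and 14.4 at days 17 and 32, whereas Nanog lay between 7.08 and 7.82. Since whole cultures were lysed, fewer cells of a type and less RNA per cell cannot be told apart.

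**Figure D1:**
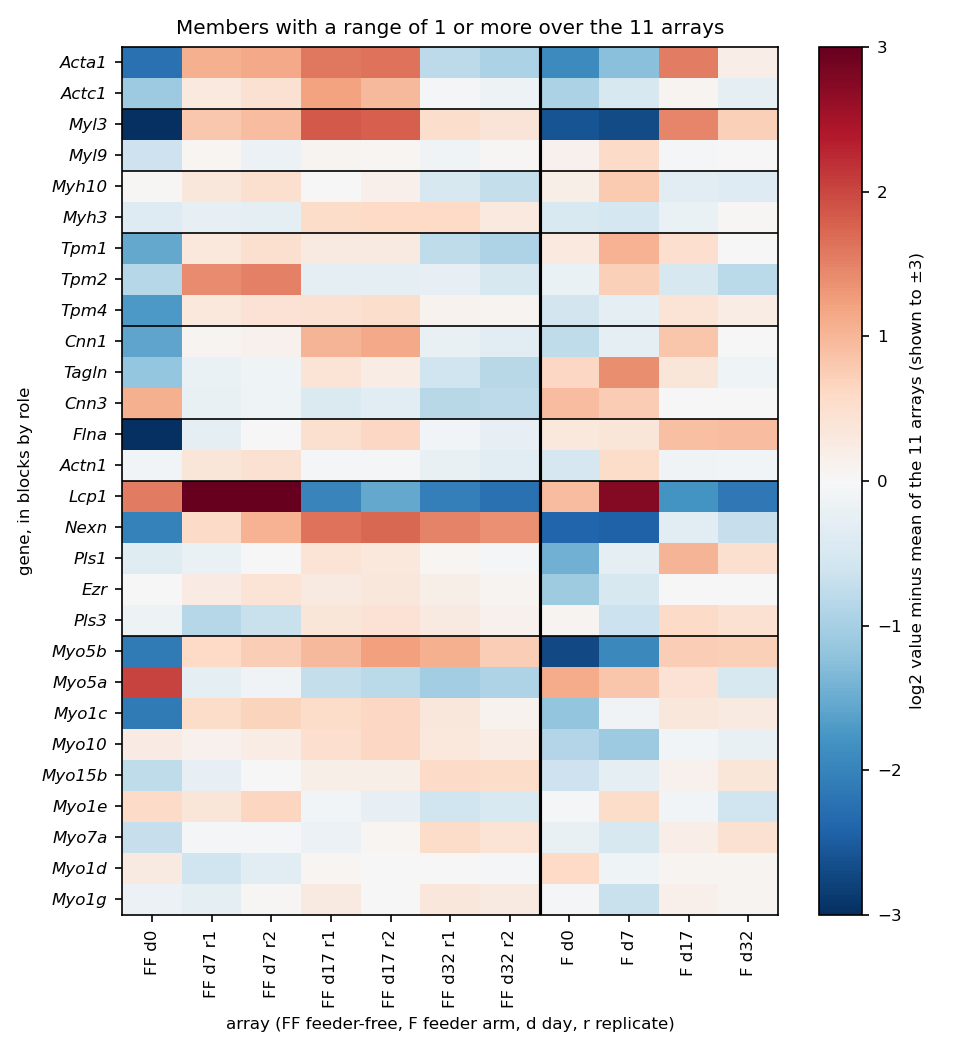
Colour shows each gene's log2 value minus its mean over the 11 arrays, clipped at 3 on either side, for the 28 members with a range of at least 1; rows are grouped by role and columns are the 7 feeder-free (FF) and 4 feeder (F) arrays in day order (d) with replicate (r). Acta1, Actc1 and Cnn1 were lowest at day 0 and highest at day 17 in both arms, while the feeder array of day 7 stayed near day 0 for Myl3, Nexn and Myo5b.

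The first question was which filament genes changed in the first week of conversion. In limma's fit over both arms, with terms for day and culture, 12 of the 58 members rose and 5 fell at an adjusted p under 0.05, which is 29.3% of the members beside 16.0% of all genes (6.74% up and 9.27% down). The rises took in alpha-skeletal actin Acta1, 3 of the 4 tropomyosins, calponin Cnn1, the motors Myo1c and Myo5b and the bundler Lcp1. The falls were those of Myo5a, Cnn3, Myo1d, Pls3 and Myl12b. Leaving out 1 array at a time, 6 of these 17 calls stood in every fit (Actn1, Lcp1, Myo1c, Myo1d, Pls3 and Tpm2), and the others were lost in at least 1. The number of calls was 7 (12.1%, beside 4.72% of all genes) when the feeder-free array of day 0 was dropped. It was 8 (13.8%, beside 6.83%) and 7 (12.1%, beside 7.78%) when replicate 1 or 2 of feeder-free day 7 was. It was 11 (19%, beside 11.1%) when replicate 2 of day 17 or replicate 1 of day 32 was. On the 7 feeder-free arrays alone 20 members rose and 6 fell, beside 36.9% of all genes (16.2% up and 20.7% down). The fit over both arms counts disagreement between the arms as spread, so a gene that moved in 1 arm only could miss a call. Myl3, Flna and Nexn changed by 4.06, 2.86 and 2.84 without feeders and by -0.09, 0.05 and -0.05 in the feeder arm. Over both arms they had changes of 2.44 ± 0.82, 1.57 ± 0.55 and 1.60 ± 0.50 and were not called.

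The arms parted in this first week. The change from day 0 to day 7 differed between them for 19 members in limma's fit with a mean for each of the 8 groups, beside 22.0% of all genes, and in 14 of the 19 the feeder arm's change was the lower (11.2% of all genes) and in 5 the higher (10.9%). Without feeders 15 members moved by 1 or more, as did 12.3% of all genes, and in the feeder arm 4 members did, as did 3.96% of all genes. The difference was called for muscle-type actins (Acta1, Actc1, Actg2), for the light chain Myl3, for Tpm1, Tpm2 and Tpm4, for Cnn1, Cnn3, Flna, Nexn, Pls1 and Actn1, and for the motors Myo1c, Myo5a, Myo5b, Myo7a and Myo9a; the remaining call was Myo1f, which lay at background. From day 7 to day 17 the change differed for 12 members, beside 19.7% of all genes, with 8 higher in the feeder arm (10.7% of all genes) and 4 lower (8.97%). Leaving out any array of the feeder-free pairs kept 17 of the 19 calls (all but Actn1 and Myo1f) and 8 of the 12 (all but Cnn3, Myo10, Myo7a and Tpm4). These tests take their spread from the 3 feeder-free pairs alone and rest on single arrays of day 0 and of the feeder arm, which could not be left out.

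**Figure D2:**
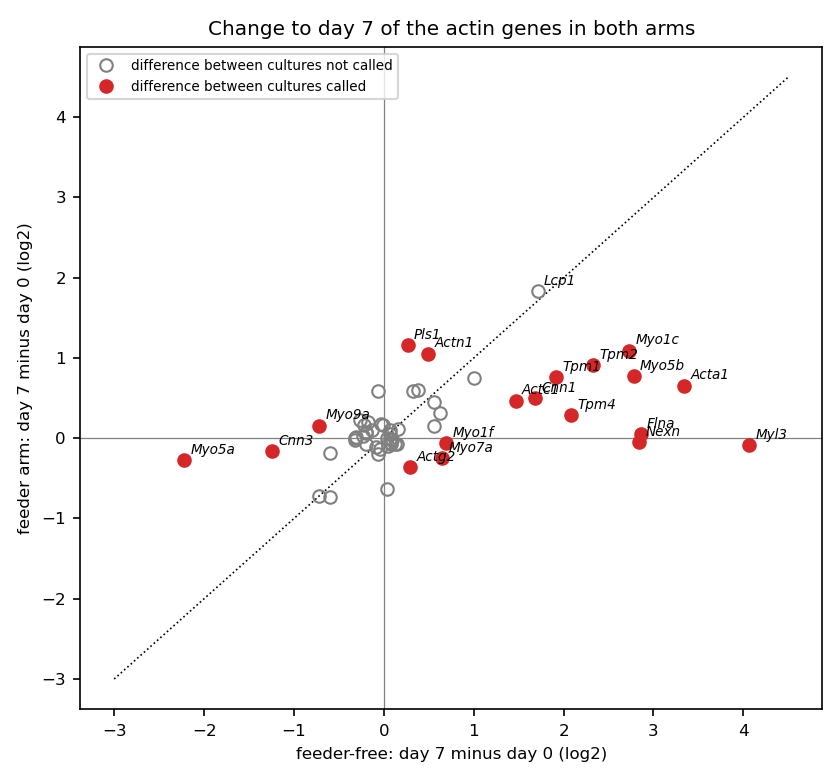
Each point is 1 of the 58 genes, with the log2 change from day 0 to day 7 in the feeder-free arm (1 array against the mean of 2) on the horizontal axis and in the feeder arm (1 array against 1) on the vertical axis; filled red points are the 19 genes whose change differed between the arms in limma, and the dotted diagonal marks equal change. Myl3, Acta1, Nexn and Flna lie far to the right near the horizontal axis, and Lcp1 lies near the diagonal.

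From day 7 to day 17, 7 members rose and 5 fell, which is 20.7% of the members beside 12.8% of all genes (9.10% up and 3.65% down). With a further quantile normalization of the arrays the split was 3 up and 5 down (13.8%, beside 8.25% of all genes). Lcp1 and Tpm2, both higher at day 7, fell, and of the 7 called rises only those of Pls3 and Cnn1 were of 1 or more. Lcp1, Pls3 and Tpm2 were called in every fit that left out 1 array. The number of calls was 3 (5.17%) when either feeder-free array of day 17 was dropped, beside 3.4% and 2.51% of all genes. It was 5 (8.62%) for the feeder array of day 17, beside 3.14%, and for replicate 1 of feeder-free day 7, beside 5.5%. For replicates 1 and 2 of feeder-free day 32 it was 6 (10.3%, beside 6.9%) and 7 (12.1%, beside 7.98%).

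From day 17 to day 32 no member passed in the fit over all arrays, as was the case for 0% of all genes, up (0%) or down (0%); 14 members had an unadjusted p under 0.05, 3 of them higher and the others lower at day 32, beside 7.29% of all genes. When only the 6 arrays of days 17 and 32 were fitted, so that days 0 and 7 did not enter the spread, 12 members fell and 2 rose, beside 5.47% of all genes (4.09% down and 1.39% up). The falls were led by the muscle-type genes Acta1, Cnn1, Myl3, Actc1, Tpm1 and Tagln, and these 6 are also the members that moved by 1 or more in the feeder-free arm, where 0.751% of all genes did. In the feeder arm Acta1 was the 1 member that did, with a change of -1.34, beside 0.455% of all genes. There Cnn1, Myl3, Tpm1, Tagln and Actc1 changed by -0.83, -0.74, -0.50, -0.50 and -0.36. Without the feeder day 7 array the fit over all other arrays called 3 members (5.17%, beside 1.6% of all genes), and without either day 0 array 1 member (1.72%, beside 0.0965%).

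Over the whole course, from day 0 to day 32, 14 members rose and 8 fell, which is 37.9% of the members beside 31.0% of all genes (17.4% up and 13.7% down). There were 9 calls (15.5%, beside 17.5% of all genes) once the day 0 array without feeders was dropped, so the members' share was then no higher than that of all genes. With the last feeder array dropped there were 14 (24.1%, beside 22.3%). Cnn3, Lcp1, Myo15b, Myo1c, Myo5a, Myo5b and Nexn were called in every fit. The highest day mean fell on day 17 for 21 members (36.2%) without feeders, beside 27.6% of all genes, and for 20 (34.5%) in the feeder arm, beside 25.1%. These counts include members that were flat or at background.

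Among the actins, the cytoplasmic and the vascular forms were not called while the 2 striated-muscle forms rose and later fell. Acta1, alpha-skeletal actin, stood at 10.07 at feeder-free day 0, 13.38 and 13.44 at day 7, 13.89 and 13.95 at day 17 and 11.54 and 11.36 at day 32. Acta1 on the feeder arrays was 10.41, 11.06, 13.85 and 12.51 in day order. It was thus high by day 7 without feeders but only by day 17 in the feeder arm, and both arms came down by day 32. The arms differed in the change to day 7 by -2.69 ± 0.19 (adjusted p = 3.41e-07) and in the change from day 7 to day 17 by 2.28 ± 0.18 (adjusted p = 9.75e-07), and between days 17 and 32 Acta1 fell by 2.09 ± 0.20 (adjusted p = 0.00143) in the fit of those days. The rise of 2.34 ± 0.65 (adjusted p = 0.0411) in the fit over both arms was lost in 9 of the 11 fits without 1 array (adjusted p up to 0.286).

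Actc1, alpha-cardiac actin, read 8.90 at feeder-free day 0, 10.29 and 10.44 at day 7, 11.20 and 10.96 at day 17 and 9.92 and 9.83 at day 32. Actc1 on the feeder arrays was 9.03, 9.50, 10.07 and 9.71 in day order. Its rise to day 7 was 1.03 ± 0.25 (adjusted p = 0.0267), lost without the feeder-free day 0 array or either feeder-free day 7 array (adjusted p up to 0.274), and it was smaller in the feeder arm, with a difference of -1.0 ± 0.21 (adjusted p = 0.00312). From day 17 to day 32 Actc1 fell by 0.93 ± 0.16 (adjusted p = 0.0176) in the fit of those days.

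Actb, beta-actin, the main non-muscle form, read 15.80 at feeder-free day 0, 15.83 and 15.94 at day 7, 16.08 and 16.08 at day 17 and 16.02 and 15.96 at day 32. Actb on the feeder arrays was 15.76, 15.74, 15.91 and 15.91 in day order. No array stood apart, and the arms overlapped. Actg1, gamma-actin, read 16.06 at feeder-free day 0, 15.71 and 15.79 at day 7, 15.90 and 15.96 at day 17 and 15.79 and 15.76 at day 32. Actg1 on the feeder arrays was 15.69, 15.70, 15.77 and 15.72 in day order. Neither was called in any comparison: over the 11 arrays Actb ranged by 0.35 and Actg1 by 0.37. The 6 probe sets named Actg1 changed by between -0.30 and -0.28 from day 0 to day 32 without feeders. Acta2, the vascular smooth muscle actin, lay between 12.6 and 13.0 on all arrays and was not called. It read 12.59 at feeder-free day 0, 12.63 and 12.71 at day 7 and 12.77 and 12.78 at day 17. At feeder-free day 32 it was 12.69 and 12.63. Acta2 on the feeder arrays was 12.95, 12.89, 12.78 and 12.62 in day order. Actg2, enteric actin, read 8.34 at feeder-free day 0, 8.75 and 8.52 at day 7, 8.91 and 8.88 at day 17 and 8.86 and 8.86 at day 32. Actg2 on the feeder arrays was 9.28, 8.92, 8.88 and 8.71 in day order. It was higher at day 0 in the feeder arm, and the arms differed in its change to day 7 by -0.65 ± 0.20 (adjusted p = 0.0296). Actin genes resemble each other in sequence, so the value of 1 actin probe set may hold signal of another, which was not tested. Saturation of the bright probe sets could not be examined.

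The light chains of class 2 myosin and their kinases gave 1 large mover. Myl3, the ventricular essential light chain, had the widest course of any light chain: it stood at 8.12 at feeder-free day 0, 12.13 and 12.24 at day 7, 13.16 and 13.10 at day 17 and 11.85 and 11.71 at day 32. Myl3 on the feeder arrays was 8.71, 8.63, 12.78 and 12.03 in day order. Without feeders it was up at day 7, and in the feeder arm it was still near its day 0 value at day 7 and high at day 17. The arms differed by -4.15 ± 0.19 (adjusted p = 7.58e-09) in the change to day 7 and by 3.21 ± 0.18 (adjusted p = 5.81e-08) in the change to day 17. Over both arms the rise to day 32 was 3.30 ± 0.82 (adjusted p = 0.0148) (adjusted p up to 0.175 if feeder-free day 0 or feeder day 32 was left out), and from day 17 to day 32 it fell by 1.15 ± 0.12 (adjusted p = 0.00213) in the fit of those days.

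The regulatory light chains of non-muscle and smooth muscle cells moved less than Myl3. Myl9 read 8.86 at feeder-free day 0, 9.54 and 9.30 at day 7, 9.56 and 9.54 at day 17 and 9.37 and 9.52 at day 32. Myl9 on the feeder arrays was 9.60, 10.05, 9.46 and 9.50 in day order. It was not called between days in the fit over both arms, and its change from day 7 to day 17 differed between the arms by -0.72 ± 0.19 (adjusted p = 0.0163). Myl12a rose to day 7 by 0.38 ± 0.11 (adjusted p = 0.0431) and Myl12b fell by 0.43 ± 0.11 (adjusted p = 0.0307), calls that were lost in 9 and 6 of the 11 fits without 1 array (adjusted p up to 0.408 and 0.269). Myl12b was higher in the feeder arm by 0.35 ± 0.07 (adjusted p = 0.00649). From day 0 to day 32 its probe set changed by -0.53 without feeders and -0.33 in the feeder arm. A second, dimmer Myl12b probe set, between 11.72 and 12.94, changed more, by -0.72 and -0.50. Myl1 and Myl2, the fast and the slow sarcomeric chains, lay at background on all arrays, and the atrial chain Myl7 stayed between 9.03 and 9.69. Of the kinases, Mylk, Mylk2 and Mylk3 lay between 8.04 and 8.76, and only Mylk3 was called, which fell by 0.35 ± 0.07 (adjusted p = 0.0317) between days 17 and 32 in the fit of those days.

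Among the heavy chains the muscle isoforms did not follow Myl3 and Acta1. Myh1, Myh2, Myh4 and Myh13, the chains of fast skeletal muscle and its relatives, lay at background on all arrays. The cardiac chains stayed low, Myh6 at 7.74 to 8.26 and Myh7 at 8.31 to 8.84, as did the smooth muscle chain Myh11 at 8.31 to 8.82. Myh3, the embryonic skeletal chain, was the only muscle heavy chain that rose between days: it read 8.24 at feeder-free day 0, 8.37 and 8.36 at day 7, 9.17 and 9.23 at day 17 and 9.21 and 8.91 at day 32. Myh3 on the feeder arrays was 8.15, 8.08, 8.43 and 8.66 in day order. Its rise from day 7 to day 17 was 0.67 ± 0.14 (adjusted p = 0.0202), lost without the first feeder-free day 7 array or either of day 17 (adjusted p up to 0.084), and it was lower in the feeder arm, with a difference of -0.40 ± 0.11 (adjusted p = 0.019) that was lost without the feeder array of day 17 or 32 (adjusted p up to 0.0746). Of the non-muscle chains, Myh10 read 11.60 at feeder-free day 0, 11.90 and 12.04 at day 7, 11.55 and 11.71 at day 17 and 11.09 and 10.87 at day 32. Myh10 on the feeder arrays was 11.74, 12.35, 11.25 and 11.19 in day order. It fell by 0.59 ± 0.15 (adjusted p = 0.0395) from day 7 to day 17 and over the whole course from day 0 fell by 0.61 ± 0.17 (adjusted p = 0.0271), and its change to day 17 differed between the arms by -0.76 ± 0.20 (adjusted p = 0.0133). Leaving out single arrays took its 2 day calls away in 8 and 5 of 11 fits, with adjusted p up to 0.113. Myh14 stayed between 9.31 and 9.62.

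**Figure D3:**
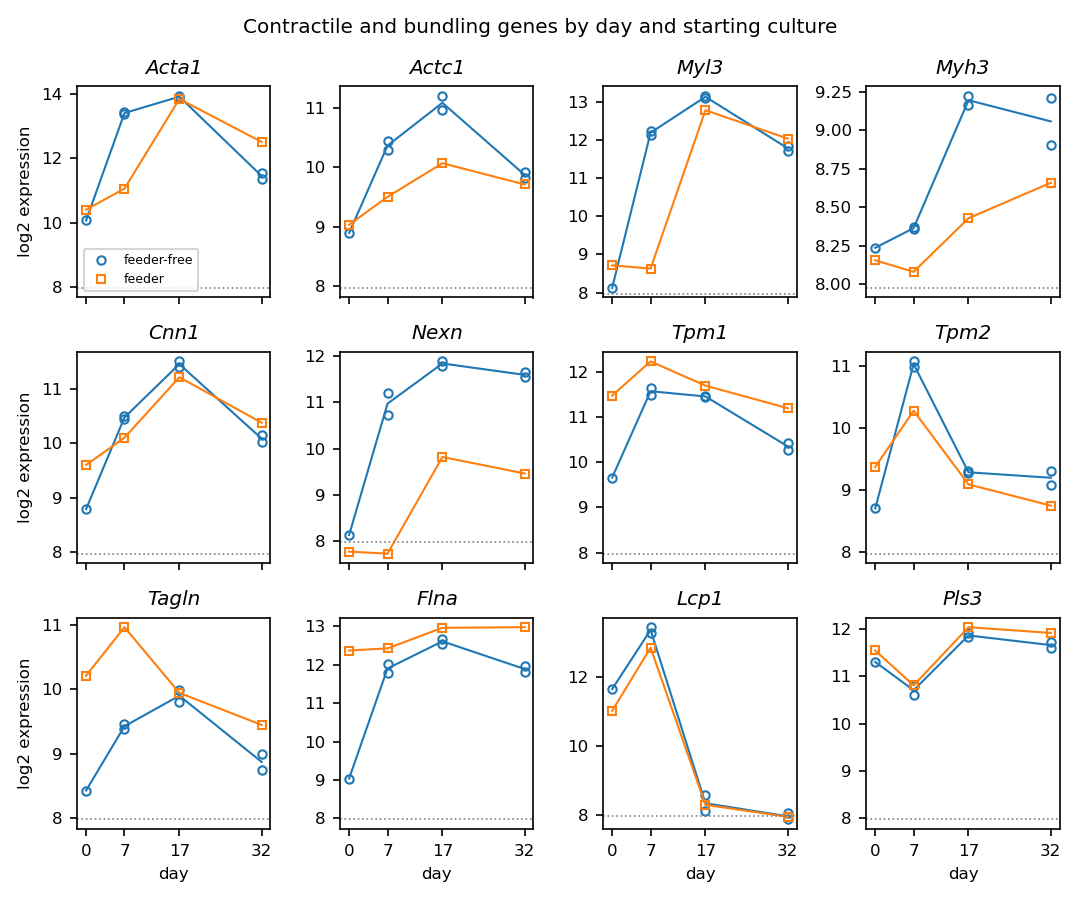
Log2 expression of 12 members on each array against day, with circles and lines (day means) for the feeder-free arm and squares for the feeder arm; each panel has its own vertical scale and the dotted line marks the 95th percentile of the receptor genes. Myl3, Acta1 and Nexn are high at day 7 only without feeders, Lcp1 drops to the dotted line by day 17 in both arms, and Flna and Tagln begin higher in the feeder arm.

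The tropomyosins rose in the first week, 3 of 4, beside 6.74% of all genes, and then took separate courses. Tpm1, which has muscle and non-muscle splice forms, read 9.66 at feeder-free day 0, 11.50 and 11.66 at day 7, 11.46 and 11.47 at day 17 and 10.44 and 10.27 at day 32. Tpm1 on the feeder arrays was 11.48, 12.24, 11.70 and 11.20 in day order. It was lowest at feeder-free day 0, and the feeder arm was higher on every day. The rise to day 7 was 1.36 ± 0.28 (adjusted p = 0.0155), lost without the feeder-free day 0 array (adjusted p up to 0.098) or the second of day 7, and the arms differed in it by -1.16 ± 0.20 (adjusted p = 0.00067). Over all days the feeder arm was higher by 0.83 ± 0.19 (adjusted p = 0.0107), and from day 17 to day 32 Tpm1 fell by 0.91 ± 0.12 (adjusted p = 0.00647) in the fit of those days.

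Tpm2, beta-tropomyosin, was a day 7 gene: it read 8.70 at feeder-free day 0, 10.99 and 11.07 at day 7, 9.31 and 9.27 at day 17 and 9.31 and 9.09 at day 32. Tpm2 on the feeder arrays was 9.37, 10.28, 9.09 and 8.75 in day order. The day 7 arrays of both arms were above all others. It rose by 1.70 ± 0.26 (adjusted p = 0.00521) to day 7 and then fell by 1.56 ± 0.23 (adjusted p = 0.00747), and the rise was smaller in the feeder arm, with a difference of -1.42 ± 0.20 (adjusted p = 0.000128). Lacking the feeder-free array of day 0 the rise was 1.10, still called. Tpm4, a non-muscle form, instead stayed up after its rise. It read 12.70 at feeder-free day 0, 14.73 and 14.84 at day 7, 14.87 and 14.93 at day 17 and 14.52 and 14.50 at day 32. Tpm4 on the feeder arrays was 13.86, 14.15, 14.82 and 14.64 in day order. Its rise to day 7 was 1.31 ± 0.31 (adjusted p = 0.0249). That call was lost without the feeder-free day 0 array or either of feeder-free day 7. Over the fits without 1 array the change ranged from 0.58 to 1.94. The rise by day 32 was 1.29 ± 0.31 (adjusted p = 0.0131) (adjusted p = 0.133 without the feeder-free day 0 array), and its change to day 7 was smaller in the feeder arm, with a difference of -1.79 ± 0.19 (adjusted p = 8.46e-06). Tpm3 stayed between 12.2 and 12.7 and from day 0 to day 32 fell by 0.35 ± 0.10 (adjusted p = 0.0222), a call lost without the feeder-free day 0 array or either of day 32 (adjusted p up to 0.238).

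The calponins and transgelin are best known from smooth muscle. Cnn1, calponin, read 8.79 at feeder-free day 0, 10.45 and 10.49 at day 7, 11.40 and 11.50 at day 17 and 10.14 and 10.02 at day 32. Cnn1 on the feeder arrays was 9.60, 10.10, 11.21 and 10.37 in day order. It rose to day 7 by 1.17 ± 0.23 (adjusted p = 0.014) and again to day 17 by 1.02 ± 0.21 (adjusted p = 0.0196), and between days 17 and 32 it fell by 1.19 ± 0.11 (adjusted p = 0.00142) in the fit of those days. The first rise was lost without the feeder-free day 0 or the first day 7 array (adjusted p up to 0.124), and the next without either feeder-free day 17 array (adjusted p up to 0.0825). Every array of days 7, 17 and 32 lay above both day 0 arrays.

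Tagln, transgelin, an early marker of smooth muscle and of stress fibres, read 8.42 at feeder-free day 0, 9.39 and 9.46 at day 7, 9.99 and 9.81 at day 17 and 8.99 and 8.75 at day 32. Tagln on the feeder arrays was 10.21, 10.97, 9.94 and 9.44 in day order. The feeder arm was higher over all days by 0.93 ± 0.25 (adjusted p = 0.0186), by 1.79 at day 0 and 1.54 at day 7 but by 0.04 at day 17 and 0.58 at day 32, and the arms differed in the change from day 7 to day 17 by -1.50 ± 0.20 (adjusted p = 8.81e-05). From day 17 to day 32 Tagln fell by 0.85 ± 0.13 (adjusted p = 0.00831) in the fit of those days. Cnn3, the calponin of non-muscle cells, went the other way from Cnn1. It read 14.88 at feeder-free day 0, 13.59 and 13.70 at day 7, 13.38 and 13.50 at day 17 and 12.99 and 13.03 at day 32. Cnn3 on the feeder arrays was 14.74, 14.58, 13.82 and 13.83 in day order. By day 32 Cnn3 fell by 1.44 ± 0.21 (adjusted p = 0.00148), and its fall to day 7 was smaller in the feeder arm, with a difference of 1.08 ± 0.19 (adjusted p = 0.000824).

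The crosslinkers tie filaments into networks and stress fibres. Flna, filamin A, differed most between the starting cultures: it read 9.04 at feeder-free day 0, 11.77 and 12.03 at day 7, 12.54 and 12.67 at day 17 and 11.96 and 11.80 at day 32. Flna on the feeder arrays was 12.36, 12.42, 12.95 and 12.97 in day order. Of the day 0 arrays the feeder array was higher by 3.33, close to its later level, whereas the feeder-free array was the lowest of all 11. The change to day 7 was 2.86 without feeders and 0.05 in the feeder arm, a difference of -2.80 ± 0.22 (adjusted p = 6.07e-07). Over both arms Flna rose by 1.74 ± 0.55 (adjusted p = 0.0409) to day 32, a call lost in 8 of the 11 fits that left out 1 array (adjusted p up to 0.444).

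Actn1, a non-muscle alpha-actinin, rose by 0.75 ± 0.13 (adjusted p = 0.00939) to day 7 and fell by 0.51 ± 0.12 (adjusted p = 0.0294) to day 17; it stood at 12.84 at feeder-free day 0, 13.28 and 13.38 at day 7, 12.90 and 12.90 at day 17 and 12.69 and 12.61 at day 32. Actn1 on the feeder arrays was 12.42, 13.48, 12.81 and 12.84 in day order. The day 7 arrays were its highest, and the fall was lost in 7 of the 11 fits that left out 1 array (adjusted p up to 0.112). Actn4, the other non-muscle form, was lower in the feeder arm, with a difference of -0.51 ± 0.08 (adjusted p = 0.00109) and all 4 feeder arrays (13.63 to 13.86) below all 7 feeder-free arrays (13.94 to 14.48). The sarcomeric forms were called in no comparison: Actn2 lay at background and Actn3 between 8.20 and 8.59.

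Among the bundlers and membrane linkers Lcp1 had the widest range of all 58 genes, 5.57. Lcp1 is L-plastin, the bundling protein of white blood cells that is also made by some epithelia and tumours. It read 11.66 at feeder-free day 0, 13.30 and 13.46 at day 7, 8.12 and 8.58 at day 17 and 8.07 and 7.88 at day 32. Lcp1 on the feeder arrays was 11.03, 12.86, 8.31 and 7.96 in day order. Both arms rose by a similar amount to day 7, 1.71 and 1.83, and both were near the background level of 7.97 at days 17 and 32, so the size of the fall is limited by that floor. Lcp1 rose by 1.81 ± 0.19 (adjusted p = 0.001) and then fell by 4.87 ± 0.17 (adjusted p = 7.37e-06), and the difference of the rise between the arms, 0.12 ± 0.26 (adjusted p = 0.832), did not pass.

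Pls3, T-plastin, ran opposite to Lcp1. It stood at 11.30 at feeder-free day 0, 10.61 and 10.80 at day 7, 11.82 and 11.90 at day 17 and 11.73 and 11.59 at day 32. Pls3 on the feeder arrays was 11.55, 10.81, 12.04 and 11.92 in day order. The day 7 arrays were the lowest in both arms; Pls3 fell by 0.65 ± 0.09 (adjusted p = 0.00424) and then rose by 1.18 ± 0.08 (adjusted p = 0.000427). Pls1, the plastin of microvilli, read 10.84 at feeder-free day 0, 10.99 and 11.21 at day 7, 11.61 and 11.51 at day 17 and 11.24 and 11.13 at day 32. Pls1 on the feeder arrays was 9.76, 10.91, 12.22 and 11.66 in day order. It was lowest on the feeder day 0 array, its change was higher in the feeder arm to day 7 (0.89 ± 0.20 (adjusted p = 0.00548)) and again to day 17 (0.85 ± 0.19 (adjusted p = 0.0053)), and its rise of 1.05 ± 0.33 (adjusted p = 0.0393) to day 32 was lost in 8 of the 11 fits that left out 1 array (adjusted p up to 0.287).

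Nexn, nexilin, which binds filaments at the Z-disc of heart muscle and at adhesion sites, kept a difference between the arms. It read 8.13 at feeder-free day 0, 10.74 and 11.21 at day 7, 11.80 and 11.89 at day 17 and 11.65 and 11.54 at day 32. Nexn on the feeder arrays was 7.77, 7.73, 9.82 and 9.46 in day order. The feeder-free arrays of days 7 to 32 all lay above every feeder array, and the feeder arrays of days 0 and 7 were below the background level. The rise over both arms to day 32 was 2.59 ± 0.50 (adjusted p = 0.00457); it was 1.47 when the feeder-free array of day 0 was left out and 3.58 when the feeder array of day 0 was, and was called in both fits. The arms differed by -2.05 ± 0.34 (adjusted p = 0.00196) over all days and by -2.89 ± 0.25 (adjusted p = 1.96e-06) in the change to day 7.

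Ezr, ezrin, which ties filaments to the membrane of microvilli, read 13.08 at feeder-free day 0, 13.32 and 13.49 at day 7, 13.35 and 13.41 at day 17 and 13.25 and 13.15 at day 32. Ezr on the feeder arrays was 12.02, 12.60, 13.09 and 13.08 in day order. The 2 lowest arrays were the feeder arrays of days 0 and 7, and the arms differed by -0.54 ± 0.14 (adjusted p = 0.0167) over all days; no change between days passed. Vil1, villin, the bundler of the intestinal and visceral endoderm brush border, read 8.33 at feeder-free day 0, 8.52 and 8.32 at day 7, 8.25 and 8.46 at day 17 and 8.27 and 8.33 at day 32. Vil1 on the feeder arrays was 8.32, 8.25, 8.39 and 8.31 in day order. It was flat to within 0.27, just above background, and was called in no comparison. A second, dimmer Vil1 probe set lay below the background level on all arrays, between 6.78 and 7.67.

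Of the 13 unconventional myosins 5 were called up and 3 down by day 32, which is 61.5% beside 31.0% of all genes (17.4% up and 13.7% down). Myo5b, which moves recycling membrane to the cell surface, read 9.30 at feeder-free day 0, 12.01 and 12.15 at day 7, 12.40 and 12.65 at day 17 and 12.48 and 12.16 at day 32. Myo5b on the feeder arrays was 8.72, 9.49, 12.16 and 12.13 in day order. It was up at day 7 without feeders and at day 17 in the feeder arm. The rise to day 32 was 3.09 ± 0.50 (adjusted p = 0.0022); the arms differed by -2.01 ± 0.24 (adjusted p = 2.66e-05) in the change to day 7 and by 2.22 ± 0.22 (adjusted p = 6.98e-06) in the change to day 17. Unlike Myo5b, its relative Myo5a, which carries melanosomes and other cargo, fell from day 0 to day 32 in both arms. It read 10.45 at feeder-free day 0, 8.14 and 8.32 at day 7, 7.71 and 7.63 at day 17 and 7.37 and 7.50 at day 32. Myo5a on the feeder arrays was 9.53, 9.26, 8.85 and 7.94 in day order. To day 32 Myo5a fell by 2.30 ± 0.39 (adjusted p = 0.00265), with all 4 feeder-free arrays of days 17 and 32 and the feeder array of day 32 below the background level. This change was -1.32 in the fit lacking feeder-free day 0 and -3.15 in that lacking feeder day 0, and was called in both. The fall to day 7 was larger without feeders, with a difference of 1.95 ± 0.20 (adjusted p = 7.05e-06).

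Myo1c, a membrane-linked motor of exocytosis, read 9.71 at feeder-free day 0, 12.39 and 12.50 at day 7, 12.39 and 12.46 at day 17 and 12.19 and 11.94 at day 32. Myo1c on the feeder arrays was 10.65, 11.74, 12.18 and 12.10 in day order. Its rise was 2.02 ± 0.29 (adjusted p = 0.00446) to day 7 and held at 1.88 ± 0.29 (adjusted p = 0.00179) by day 32 (1.23, still called, if feeder-free day 0 was dropped), and it was smaller in the feeder arm in the first week, with a difference of -1.64 ± 0.21 (adjusted p = 4.89e-05). Myo15b rose by 1.17 ± 0.11 (adjusted p = 0.000226) by day 32; it stood at 8.59 at feeder-free day 0, 9.10 and 9.33 at day 7, 9.52 and 9.52 at day 17 and 9.92 and 9.90 at day 32. Myo15b on the feeder arrays was 8.74, 9.06, 9.48 and 9.72 in day order. Its values went up from each day to the next in both arms. Myo7a, a motor of stereocilia and of the pigment epithelium, rose by 0.94 ± 0.19 (adjusted p = 0.00538) by day 32 (adjusted p = 0.0787 without the feeder-free day 0 array), and Myo9b by 0.45 ± 0.10 (adjusted p = 0.00887) (adjusted p = 0.0943 without that array).

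Of the other class 1 motors, Myo1e, found at adhesion and endocytic sites, fell by 0.66 ± 0.15 (adjusted p = 0.0247) from day 7 to day 17, a call lost in 4 of the 11 fits without 1 array (adjusted p up to 0.0973), and over the whole course from day 0 fell by 0.84 ± 0.16 (adjusted p = 0.00516) (adjusted p up to 0.0612, without the feeder-free day 0 array). Myo1d fell by 0.74 ± 0.11 (adjusted p = 0.00524) to day 7, with changes of -0.73 without feeders and -0.72 in the feeder arm. Myo10, the motor of filopodia, was lower in the feeder arm, with a difference of -0.86 ± 0.12 (adjusted p = 0.000772): the feeder arrays lay between 12.2 and 13.2 and the feeder-free arrays between 13.4 and 13.9, with no overlap. The arms differed in the change of Myo9a to day 7 by 0.88 ± 0.22 (adjusted p = 0.0102). Myo16 and Myo1g were called in no comparison, with values of 7.95 to 8.28 and 8.08 to 9.09.

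Across all days, 6 members were higher and 8 lower in the feeder arm, which is 24.1% of the members beside 32.7% of all genes (15.5% up and 17.2% down). The higher genes were Flna, Tagln, Tpm1, Cnn3, Myl12b and Pls3, and the lower were Nexn, Myo10, Ezr, Actc1, Actn4, Myh3, Myo9b and Myh1, the last at background. Of these 14 calls 7 stood in every fit that left out 1 array (Actn4, Ezr, Myl12b, Myo10, Nexn, Tagln and Tpm1). Without the feeder day 32 array 9 members were called (15.5%, beside 28% of all genes). Markers of fibroblasts, the feeder cell type, were higher on the first feeder arrays. The mean of 12 fibroblast markers was 10.1 on the feeder array of day 0 and 9.12 on that of day 7, and between 8.43 and 8.57 on the other 9 arrays, with 3 of the 12 at background on all arrays. Col1a1, a collagen of fibroblasts, read 13.1 on the feeder array of day 0 and 11.2 on that of day 7, and Postn, periostin, 11.8 and 8.42, beside 9.57 to 10.2 and 6.61 to 7.02 on the other arrays. Flna, Tagln, Tpm1 and Cnn1 were higher on that feeder day 0 array than on the feeder-free one by 3.33, 1.79, 1.82 and 0.81, and the part of the fibroblast signal in these differences was not tested. In the feeder arm from day 0 to day 7, while the fibroblast mean went down, Tagln changed by 0.75, Tpm1 by 0.76, Cnn1 by 0.50 and Flna by 0.05. At days 17 and 32, where the fibroblast mean was between 8.53 and 8.57 in both arms, the difference between the arms was -2.02 and -2.13 for Nexn and 0.35 and 1.09 for Flna.

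The striated muscle genes outside the rule were examined because Acta1, Actc1 and Myl3 encode sarcomere proteins. Of 19 genes, 3 (15.8%) rose to day 7 and 5 (26.3%) to day 32, beside 6.74% and 17.4% of all genes, with 1 of the 19 at background on all arrays. Mybpc3, cardiac myosin-binding protein C, read 8.59 at feeder-free day 0, 12.8 and 13.1 at day 7, 13.3 on both arrays of day 17 and 12.6 on both of day 32, and 8.48, 8.64, 11.79 and 11.01 on the feeder arrays in day order. Its rise to day 32 was 3.20 ± 0.74 (adjusted p = 0.0107), and its change to day 7 differed between the arms by -4.19 ± 0.21 (adjusted p = 1.20e-08). The slow and cardiac troponins Tnni1, Tnnc1 and Tnnt2 also rose to day 32, by 1.30 ± 0.39 (adjusted p = 0.0344), 1.71 ± 0.27 (adjusted p = 0.00191) and 1.09 ± 0.32 (adjusted p = 0.0296). The regulators of the muscle lineages kept to narrow ranges: Myod1 lay between 7.89 and 8.21, Myog between 7.51 and 8.03 and Nkx2-5 between 8.89 and 9.18, and none was called between days in the fit over both arms. On the feeder-free arrays alone Myog changed to day 7 by -0.35 ± 0.12 (adjusted p = 0.0362). Des, desmin, was high only on the feeder-free day 7 arrays (11.1 and 11.2, beside 8.56 to 9.16 elsewhere), and the arms differed in the change to day 7 by -2.31 ± 0.19 (adjusted p = 9.56e-07). Of 9 smooth muscle genes outside the rule, Des among them, 1 (11.1%) rose to day 7 and 3 (33.3%) to day 32, beside 6.74% and 17.4% of all genes. The largest was Smtn, smoothelin, at 0.57 ± 0.10 (adjusted p = 0.00331) to day 32.

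**Figure D4:**
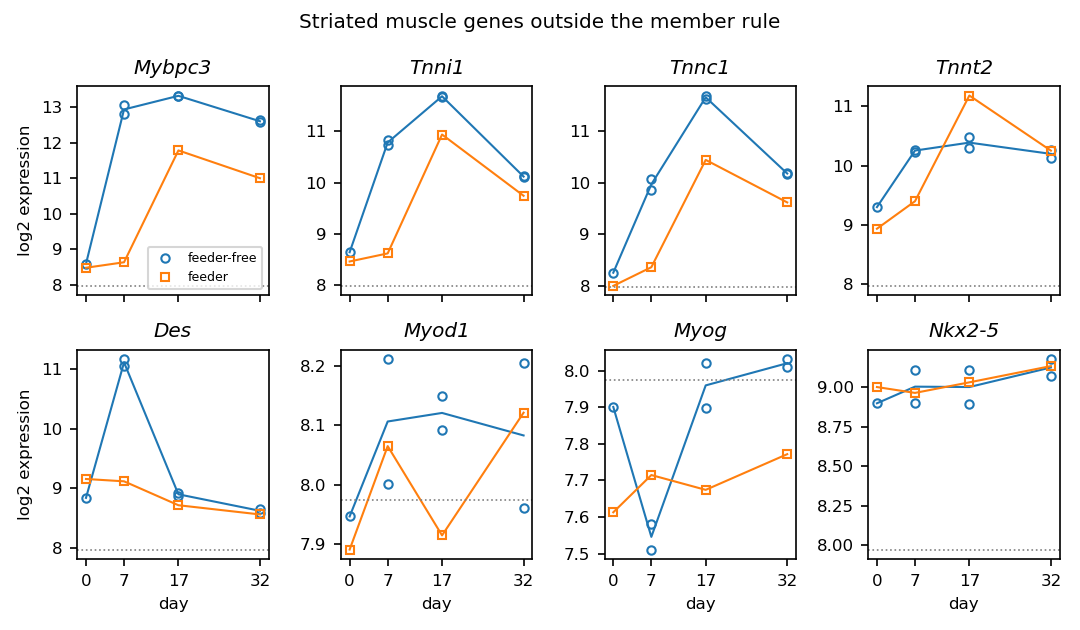
Log2 expression of 8 striated muscle genes outside the rule on each array against day, drawn as for the members, with a vertical scale of its own in each panel. The sarcomere genes Mybpc3, Tnni1 and Tnnc1 peak at day 17 in both arms, Des peaks at day 7 without feeders, and the lower panels of Myod1, Myog and Nkx2-5 span less than 1 on the log2 scale.

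Genes of SRF, its cofactors and targets outside the rule had more rises than falls in the first week. Of 18 measured, 10 (55.6%) rose and 1 (5.56%) fell to day 7, beside 6.74% and 9.27% of all genes, with a median change of 0.65 beside -0.04 over all genes. To day 32, 10 (55.6%) rose and 2 (11.1%) fell, beside 17.4% and 13.7% of all genes. The matricellular targets Ccn1 and Ccn2 rose most to day 7, by 3.09 ± 0.38 (adjusted p = 0.0023) and 2.34 ± 0.29 (adjusted p = 0.00232), and Fhl1 fell by 2.25 ± 0.31 (adjusted p = 0.00327). In the first week the change was lower in the feeder arm for 10 of the 18 (55.6%) and higher for 1 (5.56%), beside 11.2% and 10.9% of all genes. Among the 10 were Tgfb1i1 with a difference of -2.47 ± 0.19 (adjusted p = 6.35e-07) and Zyx, zyxin, with -1.73 ± 0.19 (adjusted p = 1.34e-05). Between days 17 and 32 the median of the list was -0.44 beside 0.00 over all genes, with no call in the fit over all arrays.

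Focal adhesion and stress fibre partners rose in the first week in 9 of 24 cases (37.5%) and fell in 1 (4.17%), beside 6.74% and 9.27% of all genes. Parvb, an adhesion adaptor, rose by 2.02 ± 0.29 (adjusted p = 0.00424), Lima1, which stabilises stress fibres, by 1.51 ± 0.34 (adjusted p = 0.0204), and Pxn, paxillin, by 1.31 ± 0.31 (adjusted p = 0.0244); the median was 0.35. By day 32 the list had 8 rises (33.3%) and 5 falls (20.8%), beside 17.4% and 13.7% of all genes, and Tns1, a tensin, fell by 1.60 ± 0.31 (adjusted p = 0.00506). The Arp2/3 complex and its activators, which branch filaments, had 1 rise (5%) and 2 falls (10%) of 20 to day 7, near the 6.74% and 9.27% of all genes. By day 32 it had 5 rises (25%) and 3 falls (15%), beside 17.4% and 13.7% of all genes, and Wasl rose by 1.37 ± 0.16 (adjusted p = 0.000576) and Cyfip2 fell by 2.05 ± 0.43 (adjusted p = 0.00678).

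Genes for monomer binding, severing and capping had 4 rises (14.8%) and 2 falls (7.41%) of 27 to day 7, beside 6.74% and 9.27% of all genes. To day 32 they had 9 rises (33.3%) and 4 falls (14.8%), beside 17.4% and 13.7%, so that the falls lay near the background. Pfn2, a profilin, which loads monomers onto filament ends, fell by 4.57 ± 0.48 (adjusted p = 0.00038), and Tmsb4x, a thymosin that holds monomers in reserve, fell by 2.21 ± 0.23 (adjusted p = 0.00039). Tmod2, a tropomodulin that caps filament ends bound by tropomyosin, rose by 3.63 ± 0.63 (adjusted p = 0.00299). Tmod2 read 8.34 and 8.50 on the feeder arrays of days 0 and 7 and 12.1 and 12.9 on those of days 17 and 32. Of 23 partners of the microvillus and the cortex 4 (17.4%) rose and 7 (30.4%) fell by day 32, beside 17.4% and 13.7% of all genes. Msn, moesin, fell by 1.92 ± 0.12 (adjusted p = 4.57e-05) and Cobl, cordon-bleu, fell by 3.00 ± 0.54 (adjusted p = 0.00336).

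Markers of other cell types were set beside the day 7 genes. Lcp1 and Tpm2 peaked at day 7, as did trophoblast markers: the mean of 7 trophoblast genes was 9.68 at feeder-free day 0, 11.7 and 11.8 at day 7 and 9.04 to 9.20 afterwards, and 9.64, 10.4, 9.17 and 9.18 in the feeder arm, none of the 7 being at background on all arrays. Of these 7, 5 (71.4%) rose and 1 (14.3%) fell to day 7, beside 6.74% and 9.27% of all genes. From day 7 to day 17, 4 (57.1%) fell, beside 3.65%. The part of trophoblast-like cells in the day 7 values of Lcp1 and Tpm2 was not tested. For Lcp1, the leukocyte markers gave a mean between 8.14 and 8.52 on all arrays; Ptprc, which marks all nucleated blood cells, lay at background (7.14 to 7.31), as did 3 of the 12 in all. Csf1r and Was of that list were above 10 only on the feeder-free day 7 arrays, while Laptm5 fell by 2.13 ± 0.35 (adjusted p = 0.00717) to day 7.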

How the data were processed

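Biotin-labelled total RNA was put on Rat Gene 1.0 ST arrays from Affymetrix. The authors deposited log2 expression values in a table of 29214 rows (probe sets) and 11 columns (arrays). The submitters' processing notes name RMA. Its version and options are not given in the sources used here, and all 11 columns share a median of 8.97. RMA draws low values together, so changes of dim genes are understated. Scanner files were not used here, so saturation and detection could not be examined, and the number of arrays limits the precision.

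The platform annotation gave 1 gene symbol to 15310 rows, more than 1 to 323 rows and no symbol to 13581. The row with the highest mean stood for each of 527 genes with several rows, which left 14506 genes, with no filter on dim genes. Of the members 57 of 58 matched RefSeq (GRCr8) by gene identifier, which gave names and the promoter windows; the build the array was designed on is not used here. Groups are the combinations of culture and day in the labels.

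limma 3.58.1 in R 4.3.3 (lmFit, eBayes) was fitted to all 14506 genes and 11 arrays with terms for day and culture (6 residual degrees of freedom) for the comparisons of days and of cultures. A fit with a mean for each of the 8 groups (3 residual degrees of freedom) gave the 2 tests that set a change in one arm against the other, where single arrays are assumed to vary like the feeder-free pairs. P-values were adjusted over all genes (Benjamini-Hochberg), and a gene was called at an adjusted value under 0.05. Receptor genes, 187 by symbol, gave the background level. The fits were also run on simulated data, whose spread came from the 8-group fit and held no disagreement between the arms. That check thus does not cover the part of the spread that such disagreement adds to the fit over both arms.

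The members and the 13 gene lists (6 of related pathways, 7 of markers) were chosen with earlier results of these data known. The result of 1 pathway list is not reported here. Members named in full are those called with a change of at least 1 between days or in a test between cultures, and 14 fixed genes, of which Myh9 was not analysed here. Of each list up to 4 called genes per comparison are named by size; genes named from the marker lists for their level on the arrays were chosen after their values were seen. Tried as alternatives were dropping the 25% dimmest genes, averaging a gene's rows, a further quantile normalization, eBayes with trend and robust, and array weights. Further ones were the 8-group fit, a replicate block, fits of the feeder-free arrays alone, of days 17 and 32 alone and of all days but day 7, and fits that each lacked 1 array. Plots were made in matplotlib 3.10.9.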

Additional observations from a re-analysis of the deposited data

Results flagged for a closer look

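For 23 of the 58 genes limma's test found that a change differed between the arms, in the first week, in the next 10 days or in both, and these 31 results are given here as values (feeder minus feeder-free, log2, with the adjusted p). Each rests on a single feeder array per day, and the first-week values also on 1 feeder-free array of day 0, so they are differences between these cultures.

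In the first week the change in the feeder arm was below the feeder-free change for 14 of the 19 genes. The difference was -4.15 for Myl3 (adjusted p = 7.58e-09), -2.69 for Acta1 (3.41e-07), -1.0 for Actc1 (0.00312) and -0.65 for Actg2 (0.0296). It was -2.89 for Nexn (1.96e-06), -2.80 for Flna (6.07e-07), -1.79 for Tpm4 (8.46e-06), -1.42 for Tpm2 (0.000128), -1.16 for Tpm1 (0.00067) and -1.18 for Cnn1 (0.000394). Among the motors it was -2.01 for Myo5b (2.66e-05), -1.64 for Myo1c (4.89e-05), -0.90 for Myo7a (0.00498) and -0.75 for Myo1f (0.0477), the last at background on all arrays. The difference had the opposite sign for Myo5a at 1.95 (7.05e-06), Cnn3 at 1.08 (0.000824), Pls1 at 0.89 (0.00548), Myo9a at 0.88 (0.0102) and Actn1 at 0.56 (0.0455).

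From day 7 to day 17 the change was higher in the feeder arm for 8 of 12 genes. The difference was 3.21 for Myl3 (5.81e-08), 2.28 for Acta1 (9.75e-07), 2.22 for Myo5b (6.98e-06), 1.22 for Nexn (0.00183), 0.85 for Pls1 (0.0053), 0.70 for Myo7a (0.0165), 0.61 for Myo10 (0.0254) and 0.55 for Tpm4 (0.0384). It was negative for Tagln at -1.50 (8.81e-05), Myh10 at -0.76 (0.0133), Myl9 at -0.72 (0.0163) and Cnn3 at -0.56 (0.0399). The 2 tests share the day 7 arrays, so a value set by 1 of those arrays enters both with opposite sign.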

How the results depend on the processing

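No call of a member changed direction under any alternative; of 1693 recomputed values of called members 1413 kept their side of the threshold and 280 lost it. The numbers of calls changed by over 1.5 times as follows, and the cause was not tested. Shares of all genes called in the same fit stand in brackets. With a replicate block they were 9 (9.13%) in place of 17 to day 7, 6 (6.78%) in place of 12 from day 7 to day 17 and 6 (23.9%) in place of 14 between the arms. The block changed the other counts by less, to 19 (25.4%) in place of 22 to day 32 and to 20 (21.1%) and 11 (19.6%) for the tests between the arms. The labels do not say whether a replicate number marks a shared culture. Deviations of same-numbered feeder-free arrays correlated at 0.03 between days 7 and 17, -0.20 between 7 and 32 and -0.10 between 17 and 32. Such values cannot show whether the samples were paired, since a shared culture need not leave a common shift. With a mean for each of the 8 groups there were 27 calls (36.9%) from day 7 to day 17, 12 (6.44%) from day 17 to day 32 and 29 (53.1%) between the arms; on the feeder-free arrays alone there were 26 (36.9%) to day 7, 21 (23.8%) from day 7 to day 17 and 14 (7.32%) from day 17 to day 32. From day 17 to day 32 array weights also gave 14 (5.46%), and the arrays of those days alone 14 (5.47%), in place of 0. Without 1 array at a time the counts ranged from 7 to 23 (4.72% to 30.7%) to day 7, 3 to 17 (2.51% to 16.2%) from day 7 to day 17 and 0 to 3 (0% to 1.6%) from day 17 to day 32. They ranged from 9 to 24 (17.5% to 38.1%) to day 32 and 9 to 14 (25.8% to 34.3%) between the arms. For the tests between the arms they were 19 to 20 (21.3% to 23%) and 10 to 15 (18.7% to 19.7%). The share of all genes called thus also moved with the array left out. Leaving out arrays was run for members only, not for the other gene lists. Signal over background limits Lcp1, Nexn and Myo5a, whose low ends lay at the receptor level.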
